A study of Mus musculus with 4 samples.

Results

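The cells described here were 579 germ cells of the mouse testis that carried transcripts of late spermatogonial marker genes, out of 46001 barcodes in 4 single-cell libraries, of which 22567 held 1000 to 4500 detected genes and 10420 of those passed a germ cell gate. They were chosen by their counts of unique molecular identifiers (UMIs, each a captured RNA molecule). A cell had at least 2 UMIs of the germ cell genes *Ddx4* and *Dazl* together, at least 2 UMIs of *Dmrtb1*, *Esx1*, *Tex13b* and *Usp26* together, and at most 1 UMI of the meiotic entry genes *Stra8* and *Meioc* together. At most 2 of 7 genes of undifferentiated spermatogonia (*Zbtb16*, *Egr4*, *Trim71*, *Lin28a*, *Sall4*, *Gfra1*, *Foxf1*) and at most 1 of 6 meiotic genes (*Dmc1*, *Terb1*, *Zcwpw1*, *Inca1*, *Rad51ap2*, *Spdya*) were detected in it. The proposed name was late differentiating spermatogonia positive for *Dmrtb1* or *Esx1*. Because 227 of the 579 cells (39.2%) held no UMI of either gene, they are called late-marker cells below, after their rule.

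The study asked how loss of *Sox17* in the rete testis (RT), the network into which the seminiferous tubules drain, affects the testis. Single-cell RNA was counted in the RT and the tubules next to it of C57BL/6 pups at P14, in 2 libraries per genotype (control and *Sox17*-cKO), each from 3 pooled pups with 5000 cells targeted. In *Sox17*-cKO, both floxed *Sox17* alleles were recombined by a Cre under *Nr5a1* (SF1) control, which acts in the somatic cells of the gonad and not in germ cells, so the late-marker cells themselves were not the target of the deletion. The methods name *Sox17*flox/flox littermates as controls, whereas the sample records give the controls SF1Cre. The libraries held 89969877 to 107203219 UMIs each. Pups cannot be separated within a library, so each genotype had 2 replicates. P-values between genotypes measure the spread between these libraries. Those between classes measure how far the class difference varies from library to library. Barcodes shared between pairs of libraries numbered 20 to 43, and 0 of them were late-marker cells in both.

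Spermatogonia begin as undifferentiated cells that self-renew, respond to retinoic acid by switching on *Kit*, and pass through a fixed series of rapid divisions before they enter meiosis as preleptotene spermatocytes. *Dmrtb1* (DMRT6) is a transcription factor of late differentiating spermatogonia that acts in the switch from mitotic division to meiosis. Many genes with expression in spermatogonia lie on the X chromosome, which is active in these cells and is silenced later, in meiotic prophase. Among them are *Esx1*, a homeobox gene, *Usp26*, a deubiquitinase, and *Tex13b*, of a testis-expressed gene family.

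The 4 genes that chose the cells differ in genome position and in the makeup of their promoters, shown here because these genes alone give the cells their name. *Dmrtb1* (ENSMUSG00000028610) lies on chromosome 4 at 107676290 to 107684230, *Esx1* (ENSMUSG00000023443) on chromosome X at 137115397 to 137122083, *Tex13b* (ENSMUSG00000042386) on X at 140808307 to 140813433 and *Usp26* (ENSMUSG00000055780) on X at 51753959 to 51801233, all on the minus strand of GRCm38. The 250 bases before each transcript start are given 5′ to 3′ on the minus strand, from RefSeq on GRCm38.p6, with CpG dinucleotides in capitals. The windows are chr4:107684231-107684480 for *Dmrtb1*, chrX:137120327-137120576 for *Esx1*, chrX:140813434-140813683 for *Tex13b* and chrX:51801234-51801483 for *Usp26*. The *Esx1* window precedes the start of its shorter annotated transcript and lies inside the gene in a longer one.
Dmrtb1: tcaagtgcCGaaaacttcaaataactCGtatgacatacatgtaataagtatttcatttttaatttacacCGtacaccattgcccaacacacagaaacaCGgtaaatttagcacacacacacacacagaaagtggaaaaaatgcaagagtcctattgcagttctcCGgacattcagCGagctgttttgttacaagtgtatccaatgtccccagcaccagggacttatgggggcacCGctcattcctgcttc
Esx1: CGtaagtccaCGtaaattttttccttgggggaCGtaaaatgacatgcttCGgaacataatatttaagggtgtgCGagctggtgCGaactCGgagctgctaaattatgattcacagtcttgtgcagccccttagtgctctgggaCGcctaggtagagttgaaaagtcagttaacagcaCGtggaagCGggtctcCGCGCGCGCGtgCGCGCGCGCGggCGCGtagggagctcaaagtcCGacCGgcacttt
Tex13b: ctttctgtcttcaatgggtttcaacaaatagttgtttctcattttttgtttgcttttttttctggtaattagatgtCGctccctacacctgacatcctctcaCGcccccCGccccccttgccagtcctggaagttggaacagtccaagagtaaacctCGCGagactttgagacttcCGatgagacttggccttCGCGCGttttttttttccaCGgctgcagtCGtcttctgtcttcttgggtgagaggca
Usp26: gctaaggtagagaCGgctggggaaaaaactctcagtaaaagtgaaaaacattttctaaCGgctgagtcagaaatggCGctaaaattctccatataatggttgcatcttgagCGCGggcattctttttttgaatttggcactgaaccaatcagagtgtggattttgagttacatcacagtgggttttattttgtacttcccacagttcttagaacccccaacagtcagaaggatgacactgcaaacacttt
The letters CG, the same on both strands, were counted in each window. *Esx1* held 24, and 89.3% of the 32851 mouse promoters in the same table held as many or fewer, whereas *Tex13b* held 11 (66.5%), *Dmrtb1* 7 (57.0%) and *Usp26* 5 (49.6%). Over all promoters the median was 6, with quartiles of 2 and 16, so *Dmrtb1* and *Usp26* stood near the middle and *Esx1* in the upper range. These counts describe the sequence only, since methylation was not measured.

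Within the cells, the 4 genes were detected to unequal extents. *Usp26* had a UMI in 519 of 579 cells (89.6%), *Tex13b* in 299 (51.6%), *Dmrtb1* in 238 (41.1%) and *Esx1* in 214 (37.0%). All 4 were found in 60 cells, *Usp26* alone in 116 and *Tex13b* with *Usp26* in 100, while *Dmrtb1* without the 3 X-linked genes was seen in 4 cells, 1 in each library. The rule was thus met mostly through *Usp26*, and *Dmrtb1* and *Esx1* occurred together in 100 cells.

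Detection was set against cells that should lack these genes. In barcodes with at most 1 UMI of *Ddx4* and *Dazl* and over 1% of UMIs from Sertoli cell markers, *Dmrtb1* had a UMI in 0.697% to 1.50% of cells over the libraries, *Esx1* in 1.50% to 2.89%, *Tex13b* in 2.97% to 4.25% and *Usp26* in 1.96% to 10.0%, at median depths of 2978 to 5710 UMIs. The median depth of the late-marker cells was 4586 to 6768 UMIs by library. With cells thinned to 3000 UMIs and shallower cells left out (128 of the 579, leaving 223, 54, 115 and 59 late-marker cells and 882, 565, 465 and 837 Sertoli-rich barcodes by library), *Dmrtb1* was found in 29.2% and 25.9% of the remaining late-marker cells of controls 1 and 2, in 23.5% and 18.6% of those of *Sox17*-cKO 1 and 2, and in 0.177% to 0.645% of the Sertoli-rich barcodes. The same 4 libraries, in this order throughout, gave thinned shares of 17.5%, 25.9%, 17.4% and 25.4% for *Esx1*, and of 68.2%, 55.6%, 69.6% and 61.0% for *Usp26*. Since the rule itself required these UMIs, the shares are a description.

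At the edge of the rule, 235 cells had exactly 2 UMIs of the 4 marker genes and 585 otherwise like cells had 1. The cells just inside had mean levels of 304 counts per 1000000 UMIs (CPM) of *Tuba3b*, 102 of *Kit* and 139 of *Ccnd1*, against 140, 58.0 and 70.3 just outside. *Ccnd2* stood at 85.6 CPM inside and 172 outside, and the Sertoli marker *Clu* at 1705 and 1771. Median depth was 4385 UMIs inside and 4087 outside. *Kit* and *Ccnd1* were lower just outside the rule in 4 of 4 libraries, while *Tuba3b* was nearly level in *Sox17*-cKO 1 (125 inside and 123 outside). *Ccnd2* was higher outside in control 2 and *Sox17*-cKO 2 and nearly level in control 1 (97.4 and 93.9) and *Sox17*-cKO 1 (112 and 108).

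The proposed name was checked on genes outside the rule. *Kit*, the receptor that marks differentiating spermatogonia, stood at 190, 84.8, 133 and 113 CPM in the late-marker cells, above all 4 libraries of the undifferentiated class (23.7, 42.2, 38.1 and 31.3). *Nanos3*, a gene of undifferentiated cells, stood at 3.40, 0, 1.03 and 4.12 CPM. The rule had already limited other genes of undifferentiated cells, so low *Nanos3* is a weak check of the name. Of the 7 undifferentiated rule genes, none was detected in 369 of the 579 cells, 1 in 154 and 2 in 56. A further part of the counts came with somatic markers. Sertoli cell markers summed to 5337, 2440, 8086 and 3454 CPM, and none of the 15 listed genes was at 0 on average. *Aard* (877 CPM) and *Clu* (845) were highest, and *Amh* (7.31) and the follicle-stimulating hormone receptor gene *Fshr* (2.26) lowest. Sertoli and other somatic markers gave over 1% of the UMIs in 106 of the 579 cells (18.3%), in 51, 5, 40 and 10 cells by library. These 106 cells had a median of 8890 UMIs, against 5135 in the other 473, and a median mitochondrial share of 11.1% against 8.87%. Results are therefore given for all cells and for cells with at most 1% somatic marker UMIs in every class compared, called the cleaner cells below, a limit set after the data were seen. Levels of the somatic markers themselves in the cleaner cells are not independent of that limit. The name cleaner refers to somatic markers only, and the mitochondrial share was not limited in these cells. Of the 267, 70, 173 and 69 late-marker cells by library, 150, 42, 88 and 40 held under 10% mitochondrial UMIs.

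**Figure D1:**
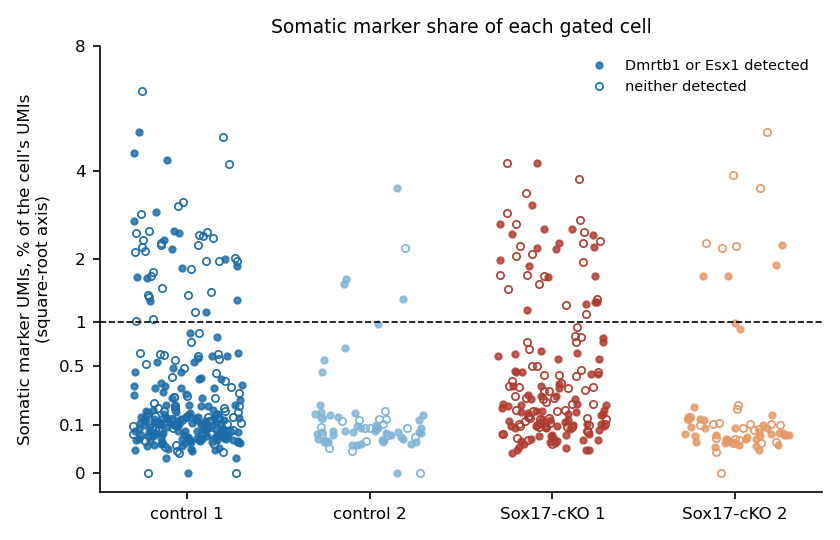
Share of each late-marker cell's UMIs that came from the Sertoli cell and other somatic marker lists (percent, square-root axis), by library, with filled points for cells with a UMI of *Dmrtb1* or *Esx1*, open points for the others and a dashed line at 1%. Most cells sit near 0.1%, and 106 of 579 lie above the line, 51 of them in control 1 and 5 in control 2.

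The levels of the rule genes are given across 5 classes gated in the same libraries, as a description, since these genes entered the gates. The undifferentiated class (647 cells) had at least 3 of the 7 undifferentiated genes, and the early class (93 cells) at least 2 UMIs of *Sohlh1* and *Dnmt3b* with at most 1 of the 4 late markers. The preleptotene class (1243 cells) had at least 2 UMIs of *Stra8* and *Meioc*, with the same limits on undifferentiated and meiotic rule genes as the late-marker cells, and the meiotic class (988 cells) at least 2 of the 6 meiotic genes. The remaining 6870 of the 10420 germ cells met no class. *Dmrtb1* had mean levels of 10.7, 6.80, 96.1, 82.3 and 76.4 CPM in the undifferentiated, early, late-marker, preleptotene and meiotic classes. *Esx1* had 7.02, 8.32, 94.5, 113 and 76.5 CPM in the same order. Both were therefore about as high in the preleptotene class, which no late marker chose, as in the late-marker cells, where *Dmrtb1* was 101, 121, 92.0 and 70.0 and *Esx1* 74.2, 101, 71.4 and 132 CPM by library.

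*Tex13b* and *Usp26* were less restricted to the later classes. *Usp26* stood at 218 CPM in the undifferentiated class, 37.6 in the early class, whose gate limited it, and 329, 336 and 277 in the late-marker, preleptotene and meiotic classes. Its late-marker levels of 381, 277, 397 and 259 CPM overlapped with the undifferentiated levels in the same plot. *Tex13b* stood at 54.7, 14.2, 142, 150 and 99.8 CPM in the 5 classes. Neighbouring late-marker and preleptotene levels overlapped between libraries for all 4 genes. *Dazl*, an RNA-binding protein gene of germ cells, was at 1134, 1393, 903 and 1268 CPM in the late-marker cells.

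**Figure D2:**
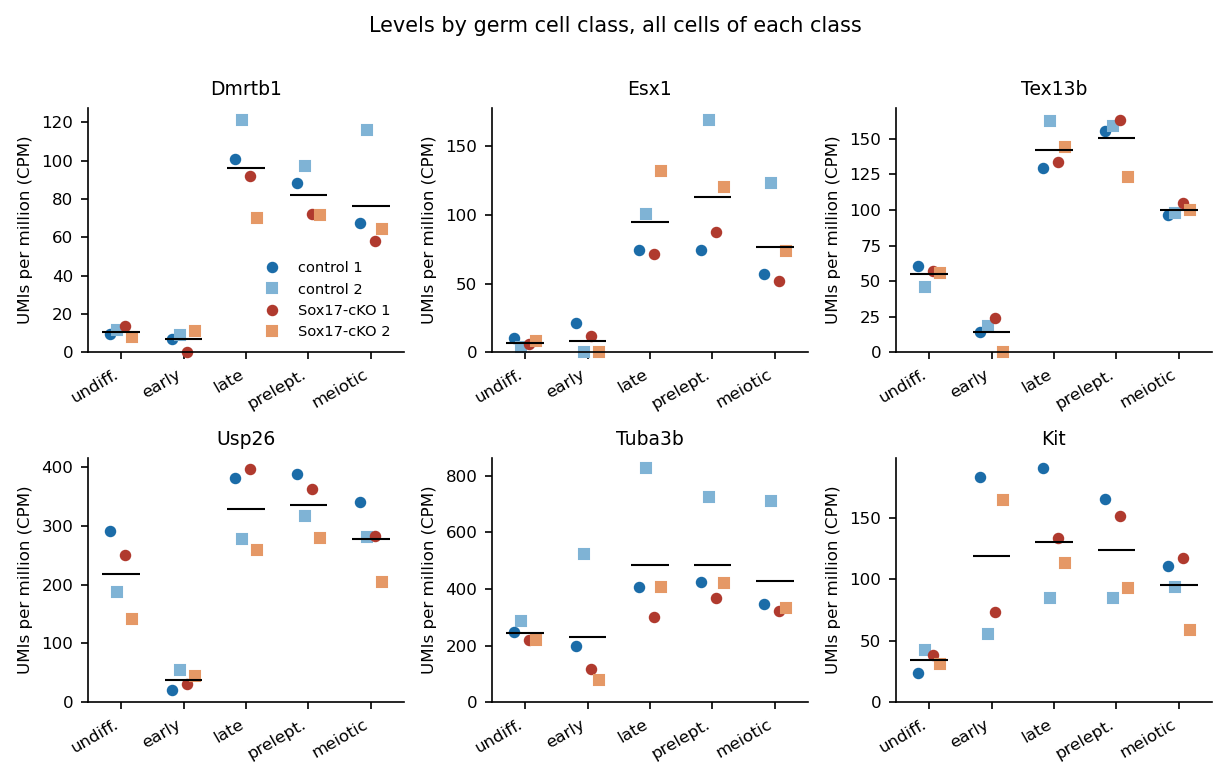
Levels (CPM, all cells of each class) of the 4 late-marker rule genes and of *Tuba3b* and *Kit*, which the rule did not use, in 5 germ cell classes, with a point for each library and a bar at their mean. *Dmrtb1* means are 10.7 CPM in the undifferentiated and 96.1 CPM in the late-marker class ("late"), and *Kit* means are 33.8 and 130 CPM.

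The comparison with the undifferentiated class asked what separated the late-marker cells from the start of the lineage in genes that no gate used. In late-marker cells, genes of undifferentiated spermatogonia and of the piRNA pathway made up a smaller share of UMIs. *Kit*, cell cycle and histone cluster genes made up a larger share. These are shares of UMIs and not counts per cell. Of 9006 genes tested with edgeR's quasi-likelihood test, 2390 were higher and 2385 lower at an adjusted p under 0.05 (53% called, 26.5% in each direction). In the cleaner cells, 2171 and 2276 of 8195 genes were called (54.3%), and 3659 genes were called in the same direction in both, 76.6% of the first set and 82.3% of the second. Depth differed between the classes. The undifferentiated gate required at least 3 detected genes, and its cells had median depths of 10750 to 12860 UMIs. The part of the gate in this depth was not tested. With cells thinned to 3000 UMIs, 1051 genes were higher and 1061 lower, and the part of depth in the counts was not tested apart from the loss of UMIs. Below, log2 differences are given ± SE, worked back from edgeR's quasi-likelihood test statistic, which shares information on spread between genes. Adjusted p-values are those of edgeR over all genes tested.

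Genes of undifferentiated spermatogonia were lower. Of 15 tested of the 22 listed, 14 fell and 0 rose, with a median log2 difference of -2.49, against -0.00 over all genes, and in the cleaner cells 13 of 14 fell. A listed gene had to be expressed in some class to be tested, so this count describes the tested genes only. The classes were also gated apart on 7 other undifferentiated genes, so lower levels of genes expressed with them follow in part from the gates. *Nanos3*, an RNA-binding regulator that keeps germ cells undifferentiated, stood at 63.3, 63.3, 75.7 and 61.7 CPM in the undifferentiated class and at 3.40, 1.03 and 4.12 CPM in 3 late-marker libraries and at 0 in control 2, where a count of 0 allows up to 6.87 CPM, a log2 difference of -4.83 ± 0.32 (edgeR adjusted p = 1.2e-10). The uridine phosphorylase gene *Upp1* fell by 4.46 ± 0.35 on the log2 scale. Outside the list, the largest falls among genes over 50 CPM were in *Large2* (3.19 against 107 CPM, -4.91 ± 0.27), *Slc16a11*, *Asphd2* and the zinc finger transcription factor *Glis3* (4.56 against 78.5 CPM, -3.93 ± 0.25).

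Of 10 differentiation markers tested of the 13 listed, 6 rose and 1 fell, with a median of 0.57, and in the cleaner cells 6 rose and 2 fell (0.88). *Kit* rose by 2.05 ± 0.21 on the log2 scale (edgeR adjusted p = 5.8e-08), and by 2.46 ± 0.21 in the cleaner cells. *Rhox13*, an X-linked homeobox gene of differentiating germ cells, rose from 32.8 to 113 CPM (1.57 ± 0.16). The marker *Tuba3b*, a testis alpha-tubulin that was proposed for these cells but not used in the rule, had 409, 827, 302 and 408 CPM in the late-marker cells and 247, 286, 220 and 221 in the undifferentiated class. The groups did not overlap, and the difference was 0.73 ± 0.12 (edgeR adjusted p = 2.5e-05) in all cells and 1.01 ± 0.09 in the cleaner cells. *Tuba3b* was highest in control 2 in each of the 5 classes. The listed member that fell in all cells was *Ccnd2*, cyclin D2.

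The D-type cyclins moved in opposite directions. *Ccnd2* stood at 310, 504, 278 and 578 CPM in the undifferentiated class and at 64.0, 32.1, 80.7 and 61.8 in the late-marker cells, a difference of -2.69 ± 0.19 (edgeR adjusted p = 3.4e-10). *Ccnd1*, cyclin D1, stood at 92.1, 113, 91.1 and 121 CPM and at 234, 305, 205 and 274 CPM, a difference of 1.14 ± 0.11. For both genes every late-marker library lay outside the range of the undifferentiated ones. Among the Cdk inhibitors, *Cdkn2c* (p18) rose from 6.37 to 31.9 CPM (2.19 ± 0.28) and *Cdkn1c* (p57) fell from 56.1 to 9.38 CPM (-2.73 ± 0.30). *Rbl1*, a retinoblastoma-like repressor, rose by 1.30 ± 0.28. In all, 6 of the 15 genes listed as G1 cyclins and Cdk inhibitors rose and 5 fell.

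Most S phase genes and 12 of 22 G2 and M phase genes rose. Of 22 S phase genes, 15 rose and 1 fell (median 0.49), and 18 rose and 0 fell in the cleaner cells (median 0.74). *Ccne2*, cyclin E2, which drives entry into S phase, stood at 19.4, 15.3, 23.9 and 25.0 CPM in the undifferentiated class and 86.1, 119, 74.5 and 101 in the late-marker cells (1.94 ± 0.17, edgeR adjusted p = 9.3e-09). *Rrm2*, the ribonucleotide reductase subunit that makes deoxynucleotides, rose by 1.76 ± 0.21. The 1 S phase gene that fell was the helicase subunit gene *Mcm7* (-0.43 ± 0.10), which was not called in the cleaner cells (-0.16 ± 0.10). Of 22 G2 and M phase genes, 12 rose and 2 fell (median 0.63), and 17 and 0 did so in the cleaner cells (median 0.89). The proliferation marker *Mki67* rose by 1.65 ± 0.12 and the mitotic kinase *Plk1* by 1.65 ± 0.19. *Ckap2* and *Bub1b* fell by 0.51 ± 0.15 and 0.41 ± 0.13 on the log2 scale, and neither was called in the cleaner cells.

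**Figure D3:**
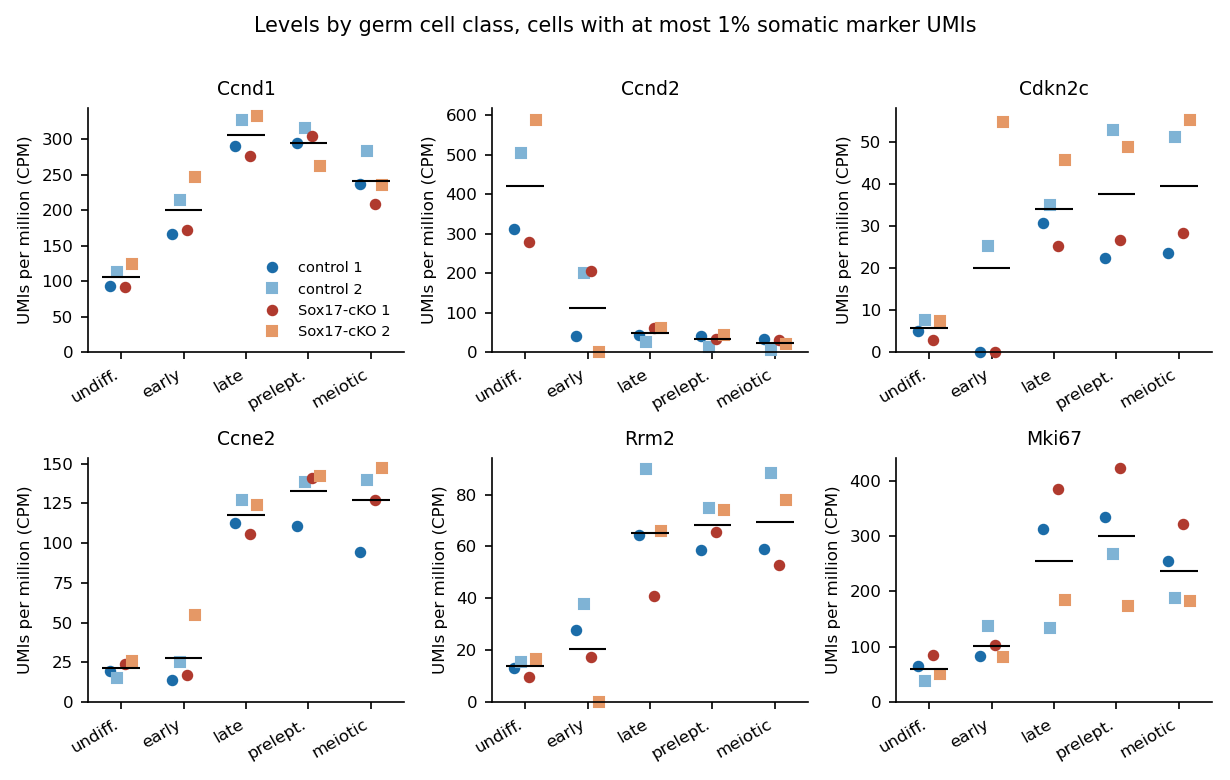
Levels (CPM) of 6 cell cycle genes in the cells with at most 1% somatic marker UMIs, by class, with a point for each library and a bar at their mean. From the undifferentiated to the late-marker class ("late"), *Ccnd2* goes from a mean of 421 to 47.5 CPM, *Ccnd1* from 106 to 306 and *Ccne2* from 21.1 to 117.

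Histone and ribosomal protein genes stood at opposite ends of the change, in 2 lists added after the data were seen. Of 19 histone cluster genes tested, 15 rose and 3 fell, with a median log2 difference of 1.54, and of 17 in the cleaner cells 15 rose and 2 fell (1.87). *Hist1h2aa*, which encodes a testis histone H2A, stood at 35.8, 5.75, 66.6 and 5.36 CPM in the undifferentiated class and 272, 179, 263 and 105 in the late-marker cells (2.65 ± 0.21). Levels of this gene in both classes were higher in the libraries of replicate 1, and the classes did not overlap. Of 82 cytosolic ribosomal protein genes, 71 fell and 3 rose (median -0.78), and 72 fell and 5 rose in the cleaner cells (-0.68).

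The piRNA pathway, which silences transposons with small RNAs, was lower. Of 17 genes tested of 19 listed, 13 fell and 0 rose (median -1.08), and in the cleaner cells 12 fell and 1, *Tdrkh*, rose (0.45 ± 0.12). *Piwil4* (MIWI2), the nuclear Piwi protein, fell from 25.0 to 2.25 CPM (-3.44 ± 0.39). *Gtsf1*, a Piwi cofactor, stood at 280, 249, 255 and 272 CPM in the undifferentiated class and at 60.6, 36.6, 56.9 and 35.0 in the late-marker cells (-2.52 ± 0.14, edgeR adjusted p = 1.2e-11). The groups were far apart in every library. RNA-binding regulators moved both ways, with 6 of 14 higher and 5 lower. *Ythdc2*, an RNA helicase needed for the switch from mitosis to meiosis, rose from 29.1 to 93.5 CPM (1.41 ± 0.18), and *Lin28b* by 0.68 ± 0.18. *Dnd1*, a partner of NANOS proteins, fell from 248 to 71.8 CPM (-1.93 ± 0.13).

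Meiotic genes already took a larger share of UMIs in the late-marker cells, although cells with more than 1 of the 6 meiotic rule genes had been left out. Of 18 axis and recombination genes tested of 28 listed, 10 rose and 2 fell (median 0.35), and 11 of 16 rose and 0 fell in the cleaner cells (0.58). *Smc1b*, the meiotic cohesin subunit, rose from 276 to 515 CPM (0.73 ± 0.09, edgeR adjusted p = 1.2e-06), *Ccdc36* from 8.62 to 19.9 CPM (1.09 ± 0.28) and *Rec8*, a meiotic kleisin, from 6.04 to 17.4 CPM (0.92 ± 0.38, edgeR adjusted p = 0.046). *Rec114* and *Syce3* fell by 0.47 ± 0.17 and 0.45 ± 0.15, and neither was called in the cleaner cells. Among called genes over 50 CPM with agreeing libraries, *Prss50*, a testis serine protease gene, and *Upb1* had the largest rises in the cleaner cells. *Prss50* stood at 76.6, 192, 124 and 238 CPM against 8.52, 9.59, 7.50 and 16.6 (3.55 ± 0.18), and at 3.28 ± 0.19 in all cells. *Upb1* rose by 3.55 ± 0.31, and the linker histone gene *H1fx* by 2.55 ± 0.12.

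The remaining lists gave mixed counts, to be read against the 26.5% of all genes called in each direction. Of 8 DNA methylation genes tested, 4 rose and 2 fell, among them *Hells*, a chromatin remodeller (0.49 ± 0.11), and *Ehmt2*, the histone methyltransferase G9a (-0.92 ± 0.12). Of 8 X-linked germ genes, 2 rose and 3 fell: *Tex11*, a recombination gene, rose by 1.04 ± 0.12 and *Rhox10* fell by 3.59 ± 0.29. Retinoic acid genes (4 of 8 higher, 1 lower) and glycolysis genes (6 of 16 higher, 7 lower) included genes that somatic cells also express. *Aldh1a1*, a retinaldehyde dehydrogenase that Sertoli cells express, rose by 2.77 ± 0.19 in all cells and 1.55 ± 0.30 in the cleaner cells. The lactate dehydrogenase gene *Ldhb* rose by 2.14 ± 0.16 and 0.63 ± 0.17. *Pkm*, pyruvate kinase, fell by 1.07 ± 0.19 in all cells and 2.29 ± 0.13 in the cleaner cells, where 9 of 13 glycolysis genes fell and 3 rose. All 13 Sertoli markers tested of 15 (median 2.39) and all 6 other somatic markers tested of 25 (median 2.70) rose in all cells, as did *Sparc* and *Cldn11* among the largest differences. Somatic genes with few counts in the undifferentiated class could pass the count filter only through the late-marker class. The somatic counts therefore describe the tested genes only.

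**Figure D4:**
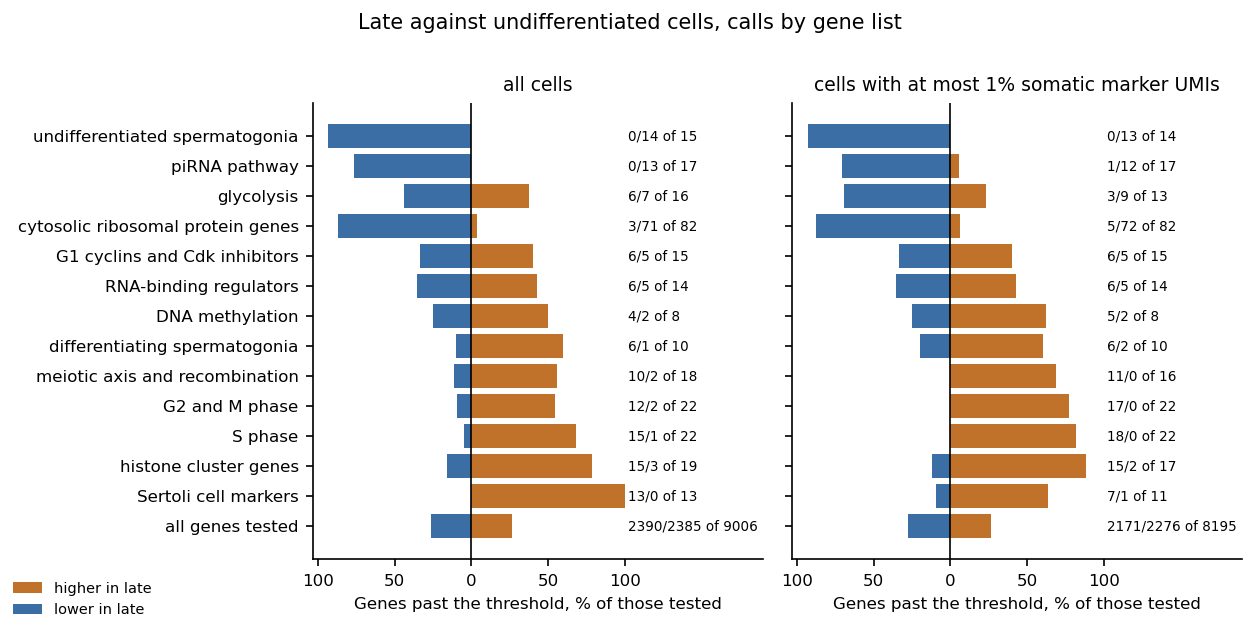
Share of the tested genes of each list that were higher (right) or lower (left) in the late-marker than in the undifferentiated class at an adjusted p under 0.05, for all cells and for cells with at most 1% somatic marker UMIs, with counts higher/lower of those tested. S phase genes rose (15 of 22), against 26.5% of all tested genes in each direction. Undifferentiated genes fell (14 of 15), in classes that were gated apart on other undifferentiated genes.

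Sums over whole lists gave the same order library by library, where the smallest exact two-sided sign-flip p that 4 pairs allow, rounded, is 0.13. S phase genes summed to 2790 ± 501 CPM (SD, n = 4) in the late-marker cells and 1924 ± 70.2 in the undifferentiated class, higher in 4 of 4 libraries (exact permutation p = 0.13). G2 and M phase genes summed to 2887 ± 236 and 1783 ± 336 CPM, also higher in 4 of 4. The preleptotene class had 2972 ± 305 CPM of the S phase list, against which the late-marker cells were lower in 3 of 4 libraries (mean difference -182 ± 196 CPM, SD, n = 4; exact permutation p = 0.25), and in the cleaner cells the difference was -8.55 CPM. It had 3704 ± 151 CPM of the G2 and M phase list, and the late-marker cells were lower in 4 of 4 libraries (mean difference -817 ± 258 CPM). With at least 3 marker UMIs per late-marker cell the G2 and M phase difference was -185 ± 379 CPM with 1 of 4 libraries higher (exact permutation p = 0.5), and the S phase difference was 406 ± 197 CPM with 4 of 4 higher.

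The X-linked share of UMIs, taken without the rule genes, was 2.37%, 2.30%, 2.77% and 2.31% in the late-marker cells and 1.88%, 1.65%, 1.86% and 1.81% in the undifferentiated class, higher by 0.639 ± 0.199 points (SD, n = 4; exact permutation p = 0.13). In the cleaner cells the difference was 0.252 ± 0.150 points, again in 4 of 4 libraries. Of 350 X-linked genes tested, 138 rose and 79 fell in all cells, and of 298 in the cleaner cells, 102 rose and 79 fell. Over all genes 26.5% rose and 26.5% fell in all cells, and 26.5% and 27.8% in the cleaner cells. Against the preleptotene class the share was 0.0790 points higher on average in all cells and 0.122 points lower in the cleaner cells, where all 4 libraries were lower (exact permutation p = 0.13). Against the early class the share was 2.44% and 2.98% in all cells, lower by 0.540 points with 0 of 4 libraries higher. In the cleaner cells it was 0.126 points higher than in the early class. The listed Sertoli markers *Rhox5* and *Rhox8* are themselves X-linked, and *Rhox8* stood at 200 CPM in the late-marker cells, 121 in the preleptotene class and 29.6 in the undifferentiated class. The part of such genes in the X-linked share was not tested.

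**Figure D5:**
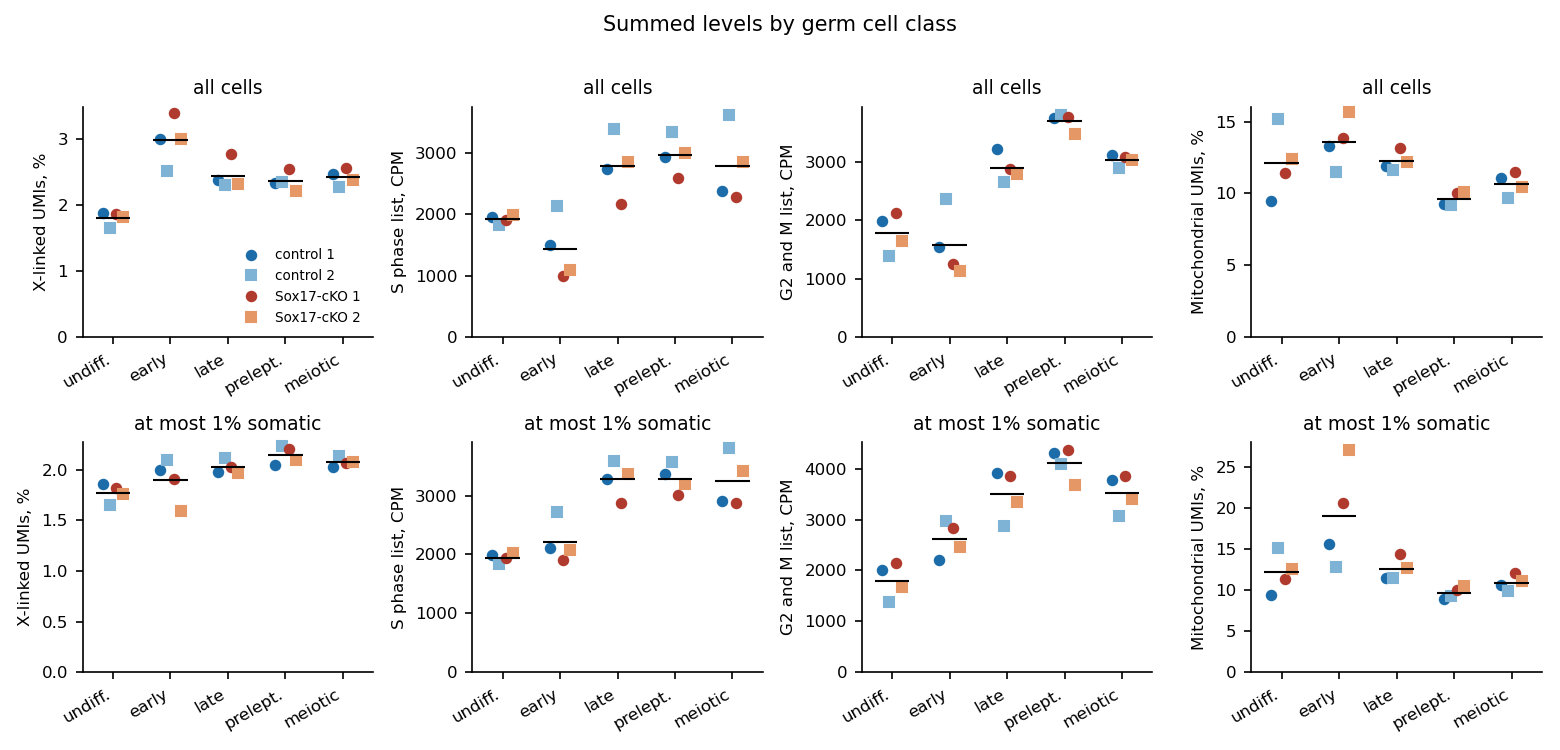
X-linked share of UMIs (percent, rule genes left out), summed CPM of the S phase and of the G2 and M phase lists, and mitochondrial share of UMIs (percent), by class, for all cells (top) and cells with at most 1% somatic marker UMIs (bottom), with a point for each library and a bar at their mean. The S phase means are 1924, 2790 and 2972 CPM in the undifferentiated, late-marker ("late") and preleptotene classes of all cells.

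Against the early class, the class before them, some S phase, mitotic and meiotic genes had higher levels in the late-marker cells as a whole. Nearly all of these calls were absent in the cleaner cells, where fewer early cells remained. The comparison is thin, because the early class had 26, 22, 28 and 17 cells and its Sertoli markers summed to 10190 CPM against 4829. In all cells, 215 of 5252 genes were higher and 556 lower (14.7% called, 4.09% higher and 10.6% lower), while in the cleaner cells, with 19, 19, 18 and 11 early cells, 5 of 4143 were higher and 19 lower (0.579%). A looser early class, with at least 1 UMI of *Sohlh1* and *Dnmt3b*, held 81, 34, 83 and 34 cleaner cells. Against it, 437 genes were called in the cleaner cells, 261 of them in the same direction as in all cells. Leaving out *Sox17*-cKO replicate 1 left 348 calls in all cells, and leaving out *Sox17*-cKO replicate 2 or control replicate 1 left 474 and 510. With cells under 10% mitochondrial UMIs, 77 genes were called. In the cleaner cells the mitochondrial share averaged 12.5% in the late-marker and 19.0% in the early class, against 12.2% and 13.6% in all cells. The part of this share in the calls was not tested.

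The 5 genes higher in the cleaner cells were *Spc24*, *Ccne2*, *H1fx*, *Hist1h2aa* and *Bsg*. *Spc24*, a kinetochore subunit gene, stood at 156 CPM against 26.6 (2.31 ± 0.47, edgeR adjusted p = 0.017), *Ccne2* at 117 against 27.7 (2.07 ± 0.49, edgeR adjusted p = 0.049) and *H1fx* at 363 against 95.5 (1.60 ± 0.30). *Hist1h2aa* stood at 252 against 90.6 CPM (1.44 ± 0.33) and *Bsg* at 743 against 350 (0.88 ± 0.20). Among the 19 lower genes, *Sparc*, which Sertoli cells express, stood at 149 against 557 CPM (-1.99 ± 0.22) and *Tubb5*, a beta-tubulin, at 171 against 568 CPM (-1.87 ± 0.21). *Kit* did not pass the test, at 130 against 119 CPM in all cells (0.09 ± 0.25). In all cells, 8 of 18 S phase genes, 7 of 21 G2 and M phase genes and 7 of 13 meiotic genes were higher and 0 lower. In the cleaner cells *Ccne2* alone of these lists was called, with list medians of 0.40, 0.20 and 0.33 against 0.05 over all genes. *Tuba3b* was higher in all cells (1.08 ± 0.22) and not called in the cleaner cells (0.56 ± 0.21).

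The preleptotene class was set apart by at least 2 UMIs of *Stra8* and *Meioc*, but 269 of the 579 late-marker cells held 1 such UMI and 310 held none. In 363 of them, 1 of the meiotic rule genes was detected. Median depths by library were 5621 to 8648 UMIs in the preleptotene class and 4586 to 6768 in the late-marker cells, which were deeper in *Sox17*-cKO 2 only. Against this class the late-marker cells differed little, and the part of the overlap between the gates in that result was not tested. Meiotic axis genes and some mitotic genes were lower and mitochondrial transcripts higher, and the undifferentiated and S phase genes gave no call. Of 9489 genes, 412 were higher and 101 lower (5.41% called, 4.34% higher and 1.06% lower), and in the cleaner cells 56 of 8805 were higher and 26 lower (0.931% called, 0.636% higher). The genes shared by both numbered 59, 11.5% of the first set and 72.0% of the second. The counts leaned on single libraries: leaving out *Sox17*-cKO replicate 1 left 94 higher and 12 lower, and leaving out *Sox17*-cKO replicate 2 left 277 and 46. With at least 3 marker UMIs per cell instead of 2, 58 were higher and 97 lower, so that most calls were then lower.

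Of 23 meiotic axis and recombination genes tested, 7 were lower and 0 higher (median -0.31), and 5 were lower in the cleaner cells. The classes were gated apart on *Stra8* and *Meioc*, so lower levels of genes expressed with them may follow in part from the gates. That part was not tested. *Hormad1*, an axis protein of meiotic chromosomes, stood at 82.5 CPM in the late-marker cells and 143 in the preleptotene class (-0.70 ± 0.13, edgeR adjusted p = 0.0016) and was also lower in the cleaner cells (-0.59 ± 0.11). *Sycp1* and *Sycp3*, components of the synaptonemal complex, were lower by 0.54 ± 0.07 and 0.46 ± 0.08 on the log2 scale. *Rec8* was lower by 1.20 ± 0.22. *Prss50*, which had risen from the undifferentiated class, stood at 65.7, 176, 98.2 and 196 CPM in the late-marker cells and at 95.2, 376, 155 and 398 in the preleptotene class (-0.76 ± 0.10). It was lower in each library, though the ranges overlapped across libraries. *Ly6k*, a germ cell surface protein gene, was lower by 0.80 ± 0.11 and the kinase gene *Braf* by 0.80 ± 0.14, and both remained lower in the cleaner cells (-0.67 ± 0.10 and -0.75 ± 0.16).

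Of 22 G2 and M phase genes, 8 were lower and 0 higher (36.4% called, median -0.31), where 1.06% of all genes were lower, with the mitotic kinase gene *Aurka* (-0.68 ± 0.17) and the spindle protein gene *Nusap1* (-0.50 ± 0.13) the largest differences, whereas 0 of 22 S phase genes were called in either direction by edgeR. In the cleaner cells *Top2a*, the topoisomerase of replicating cells, was the 1 gene of both lists that was called (448 against 588 CPM, -0.32 ± 0.07). *Tuba3b* (0.01 ± 0.08), *Ccnd1* (-0.03 ± 0.09) and *Ccnd2* (0.42 ± 0.16) were not called.

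Mitochondrial genes and Sertoli markers were higher in the late-marker cells as chosen by the rule, and these differences changed with the choice of cells. Of the 13 protein-coding genes of the mitochondrial genome, 12 were higher (median 0.43) and all 13 in the cleaner cells (0.45), as *mt-Co3*, a cytochrome oxidase subunit, shows (0.45 ± 0.06 in the cleaner cells). The mitochondrial share was 11.9%, 11.6%, 13.2% and 12.2% of UMIs against 9.22%, 9.17%, 10.0% and 10.1%, higher in 4 of 4 libraries (2.61 ± 0.46 points, exact permutation p = 0.13). The difference was 0.551 ± 0.494 points with at least 3 marker UMIs and -0.0591 ± 0.293 points in cells under 10% mitochondrial UMIs. Of 13 Sertoli markers, 11 were higher (median 0.89) and of 10 other somatic markers 0 were called (median 0.18) in all cells. In the cleaner cells, 0 of 11 Sertoli markers were called (0.35), and 1 of 5 other somatic markers was higher (0.43). The limit itself acts on both lists there. The Sertoli marker sum was 2093 ± 912 CPM higher in the late-marker cells in 4 of 4 libraries, but with at least 3 marker UMIs the difference was -811 ± 896 CPM and 0 of 4 libraries were higher. The 10 largest higher genes in all cells included *Fndc5* (1.26 ± 0.17), *Cldn11* (1.07 ± 0.12) and *Sdc4* (1.06 ± 0.13), and 8 of the 10 had differences below 0 at 3 or more marker UMIs. In the cleaner cells *Fos*, an immediate early gene, stood at 103 against 53.6 CPM (1.04 ± 0.17) and *mt-Nd6* at 151 against 94.8 (0.70 ± 0.10).

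The late-marker cells were not uniform. The 352 cells with a UMI of *Dmrtb1* or *Esx1* (168, 50, 93 and 41 by library) were compared with the 227 cells that had entered through *Tex13b* and *Usp26* only (99, 20, 80 and 28), a comparison added after the counts were seen, with the rule genes left out. The cells with *Dmrtb1* or *Esx1* had less *Ccnd2* and mitochondrial RNA and more *Ccnd1*, and some histone genes were higher. Of 5874 genes, 79 were higher in them and 244 lower (5.5% called, 1.34% higher and 4.15% lower), and in the cleaner cells 32 and 65 of 5050 (1.92% called, 1.29% lower). The count ran from 22 without *Sox17*-cKO replicate 2 to 475 without control replicate 2, and was 65 without control replicate 1 and 146 without *Sox17*-cKO replicate 1. With cells under 10% mitochondrial UMIs 0 genes were higher and 3 lower, which were *Ccnd2*, *Rpl22l1* and *Rasl11a*, the last 2 named after their values were seen. That limit left 117, 32, 59 and 26 cells with *Dmrtb1* or *Esx1* by library, and 33, 10, 29 and 14 with neither.

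*Ccnd2* stood at 29.7, 20.8, 47.4 and 24.1 CPM in the cells with *Dmrtb1* or *Esx1* and at 127, 70.3, 128 and 143 in the cells with neither. The groups did not overlap, and the difference was -2.07 ± 0.24 in all cells (edgeR adjusted p = 0.00021) and -2.98 ± 0.30 in the cleaner cells, and it was -2.39 in cells under 10% mitochondrial UMIs (edgeR adjusted p = 0.020). *Ccnd1* ran the other way, at 292, 338, 254 and 332 CPM against 126, 191, 133 and 149 (0.90 ± 0.15, edgeR adjusted p = 0.0059), with 0.58 ± 0.15 in the cleaner cells. *Hist1h2ap* stood at 889, 1070, 430 and 127 CPM against 329, 512, 154 and 77.8, higher in every library although the levels of the libraries themselves lay far apart (1.12 ± 0.14). Of 14 histone cluster genes tested, 4 were higher and 0 lower (median 0.88), and of 11 in the cleaner cells 2 were higher (0.45). *Hist1h2aa* was higher by 1.07 ± 0.18 and the ubiquitin ligase gene *Rnf19b* by 1.31 ± 0.29. *Kit* was not called in either direction (138 against 119 CPM, 0.09 ± 0.19).

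All 13 mitochondrial genes were lower in the cells with *Dmrtb1* or *Esx1*, with a median of -0.95 and of -1.26 in the cleaner cells. *mt-Co3* was lower by 1.08 ± 0.06 on the log2 scale, and the mitochondrial share averaged 9.82% against 17.5%, lower in 4 of 4 libraries. In the cleaner cells the share averaged 9.56% against 20.5%. In cells under 10% mitochondrial UMIs the shares were 6.74% and 5.99%, a difference of 0.756 ± 1.16 points. Sertoli markers were lower for 10 of 11 genes tested (median -1.18) and for 2 of 7 in the cleaner cells, and 62 of the 227 cells with neither gene (27.3%) carried over 1% somatic marker UMIs, against 44 of 352 (12.5%). The median depth was 4641 UMIs in the cells with neither gene and 6535 in the others. S phase genes were higher for 3 of 20 tested and lower for 0, and for 0 of 21 in the cleaner cells (median 0.26). The part of depth, mitochondrial share and somatic markers in these differences was not tested beyond the settings given. The 4 cells with *Dmrtb1* and none of the X-linked genes gave 0 calls of 1950 genes (0% called) against the cells with X-linked genes and no *Dmrtb1*, with 98 genes at an unadjusted p under 0.05, and 1 cell per library sets that limit.

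The last comparison was between the genotypes. *Sox17* had 0, 0, 1 and 0 UMIs in the late-marker cells, and a count of 0 allows up to 1.70 CPM in control 1, 6.87 in control 2 and 6.18 in *Sox17*-cKO 2, so no difference in *Sox17* was detectable in these cells. They made up 267 of 3644 gated germ cells in control 1 (7.33%, exact binomial 95% interval 6.50% to 8.22%), 70 of 1513 in control 2 (4.63%, 3.62% to 5.81%), 173 of 3400 in *Sox17*-cKO 1 (5.09%, 4.37% to 5.88%) and 69 of 1863 in *Sox17*-cKO 2 (3.70%, 2.89% to 4.66%). The intervals cover counting error only. The mean share was 1.58 points lower in *Sox17*-cKO, with overlapping groups (exact permutation p = 0.667, two-sided, where 2 libraries against 2 allow no p below 0.333). In cells under 10% mitochondrial UMIs the shares were 6.76% and 4.20% in control and 3.90% and 3.30% in *Sox17*-cKO, without overlap (exact permutation p = 0.333). In each replicate number the *Sox17*-cKO share was the lower of the pair.

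Gene levels in the late-marker cells gave no call between the genotypes. Of 8227 genes, 0 passed in edgeR (0% called), with 192 at an unadjusted p under 0.05, and DESeq2 also called 0, with 60 at an unadjusted p under 0.05. Of 6869 genes in the cleaner cells 0 passed, with 116 at an unadjusted p under 0.05. The 4 sums held 1764515, 436514, 966982 and 485775 UMIs, so that 1 UMI was worth 0.567 to 2.29 CPM. In data simulated at this depth the test recovered 13% of genes changed by 2-fold and 68% of those changed by 4-fold, so differences of 2-fold could be missed. Leaving out a library leaves 1 sample in its genotype, which is then assumed to vary like the other genotype, so these counts are weak evidence. Without control replicate 1 the count was 32, without control replicate 2 it was 3 (*Rgs5*, *C730034F03Rik* and *Mirt1*, named after their values were seen), without *Sox17*-cKO replicate 1 it was 13 and without *Sox17*-cKO replicate 2 it was 19.

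The replicate number coincides with the Cell Ranger version (6.0.2 for replicate 1 and 6.1.2 for replicate 2). With that number as a block, 49 genes passed, 37 higher and 12 lower in *Sox17*-cKO. Among the genes with the smallest p-values without the block, *Hist1h2ap* stood at 692, 939, 316 and 111 CPM, lower in both *Sox17*-cKO libraries (-1.96 ± 0.44, edgeR adjusted p = 0.999 without the block and 0.00079 with it, DESeq2 adjusted p = 0.093). *Atp1b1*, a subunit gene of the sodium pump, stood at 56.7, 48.1, 141 and 101 CPM, higher in both *Sox17*-cKO libraries, with edgeR adjusted p = 0.999 without the block and 0.014 with it. *Tuba3b* was among the 12 lower genes with the block (edgeR adjusted p = 0.045), at 409, 827, 302 and 408 CPM, as were *Rpl35* and *Gm8186*. For *Tuba3b* the groups nearly met without overlap, at 408.6 CPM in control 1 and 407.6 in *Sox17*-cKO 2. The Sertoli markers *Cst9* and *Ctsl* were among the 37 higher genes, and the summed Sertoli markers were higher in *Sox17*-cKO within each replicate number, at 8086 against 5337 CPM and 3454 against 2440. With at least 3 marker UMIs per cell the summed Sertoli markers averaged 1871 CPM in *Sox17*-cKO and 1980 CPM in control. The part of these markers in the other block calls was not tested.

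The late-marker rule genes themselves had log2 differences (*Sox17*-cKO minus control) of -0.48 ± 0.30 for *Dmrtb1*, 0.17 ± 0.37 for *Esx1*, -0.11 ± 0.29 for *Tex13b* and -0.06 ± 0.31 for *Usp26*, given as a description because they chose the cells. *Kit* stood at -0.25 ± 0.38. No list had a called member without the block. The median was -0.58 over 19 histone cluster genes, -0.36 over 22 S phase genes, -0.18 over 22 G2 and M phase genes, -0.37 over 82 ribosomal protein genes and 0.48 over 13 Sertoli markers, against 0.01 over all genes. In the cleaner cells these medians were -0.54 (18 genes), -0.17, -0.095, -0.29 and 0.11 (9 genes). The difference between the genotype effects in the late-marker and early classes, tested as an interaction, passed for 0 of 6444 genes in edgeR (0% called), with 177 at an unadjusted p under 0.05. It passed for 20 genes without control replicate 1 and 30 without control replicate 2, with the same limit on the lone sample, and for 2 genes, *Rgs5* and *1500015O10Rik*, of 5211 in the cleaner cells (0.0384% called), both named after their values were seen. DESeq2 called 0, with 36 at an unadjusted p under 0.05. The simulated recovery of 2-fold differences for this test was 4%.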

How the data were processed

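RNA was counted in 4 libraries of dissociated cells from the rete testis and adjacent tubules at P14. The authors deposited whole UMI counts per gene and barcode for each library, without normalization, made from 10x Genomics 3' reads with Cell Ranger (6.0.2 for replicate 1 and 6.1.2 for replicate 2, per the labels) against mm10. The records name the v3 kit and the methods v3.1. Of 31053 features, 99.9% matched GENCODE vM21. The authors' limit of 1% mitochondrial UMIs was not applied. No doublet caller was run here, and cells with many somatic marker UMIs were left out in an alternative instead.

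Groups came from the sample titles. UMIs were summed per library and class. Genotypes were compared over 4 sums and classes over 8 sums with the library as a block, by edgeR 4.0.16 in R 4.3.3 (TMM, filterByExpr, quasi-likelihood test, Benjamini-Hochberg adjustment, threshold 0.05, two-sided). Genes used in any gate were left out of the class tests. CPM values were computed on a class's whole UMI total, and fold changes with TMM scaling. The sums held 436514 to 1764515 UMIs in the late-marker cells. Shares have exact binomial intervals (scipy 1.17.1) and exact permutation tests, and sums over lists exact sign-flip permutation tests over libraries. The edgeR steps were tested on simulated data with 100 genes changed 2-fold and 100 changed 4-fold. Recovery was 81% and 94% against the undifferentiated class, 86% and 94% against the preleptotene class, 55% and 84% against the early class and 13% and 68% between genotypes, with 11, 6, 6 and 3 false calls.

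The rule for the cells and the gene lists were chosen with earlier results of these data known. Named genes were the rule genes and proposed markers, up to 2 called members with the largest differences per list and direction, the 10 highest and 10 lowest called genes over 50 CPM with libraries agreeing in each class comparison (of which the text gives a part), and the 5 highest and 5 lowest by p for genotype. Other list members are given as levels or as genes that lists and gates share. Alternatives were DESeq2 1.42.0, no filter on low counts, each library left out, cells under 10% mitochondrial UMIs, removal of the 10% of cells with most somatic marker UMIs, thinning to 3000 UMIs, at least 3 marker UMIs, and the replicate number as a block. The limit of 1% somatic marker UMIs, a looser early class, the comparison by *Dmrtb1* or *Esx1*, and the histone, ribosomal and mitochondrial lists were added after the data were seen. Promoter sequences came from RefSeq. Some results are not reported here.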

Additional observations from a re-analysis of the deposited data

How the results depend on the processing

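The same-numbered libraries shared deviations from their genotype means (correlation 0.40 over 8227 genes). The 2 pairs also share a number, a Cell Ranger version and neighbouring sample records. The sample labels name no batch, so the pairing remains a hint only. With the replicate number as a block, 49 genes passed between genotypes against 0. With no filter 12 passed, and leaving out each library gave 3 to 32. Against the early class (771 calls), DESeq2 gave 372, the 1% somatic limit 24, that limit with a looser early class 437, thinning 125, the 10% mitochondrial limit 77, and leaving out a library 348 to 758. Against the preleptotene class (513 calls), the values were 155 with DESeq2, 155 with 3 marker UMIs, 82 with the 1% somatic limit, 115 with thinning, 67 with the 10% mitochondrial limit and 106 to 466 without a library. Against the undifferentiated class (4775 calls), thinning gave 2112, and leaving out a library 3230 to 5086. For the interaction (0 calls), the 1% somatic limit, thinning and removal of the top 10% by somatic UMIs gave 2 each (*Rgs5* and *1500015O10Rik*, and *Col3a1* and *Col1a2* with thinning), no filter 8, and leaving out a library 0 to 30. Cells with *Dmrtb1* or *Esx1* against cells with neither (323 calls) gave 94 with DESeq2, 97 with the 1% somatic limit, 747 with no filter, 149 with thinning, 3 with the 10% mitochondrial limit, 57 without the top 10% by somatic UMIs and 22 to 475 without a library. The *Dmrtb1*-only comparison (0 calls) gave 21 with no filter and 0 to 3 without a library, and could not be run with the mitochondrial and somatic limits, which left libraries without such cells.

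Signs turned in the cases below, among others. The X-linked share against the early class went from -0.540 to 0.126 points with the 1% somatic limit. Against the preleptotene class it became -0.122 with that limit, -0.00911 without the top 10% by somatic UMIs, -0.200 with 3 marker UMIs and -0.0266 with thinning. The S phase sum against the preleptotene class became 152.5 CPM with the mitochondrial limit and 405.7 with 3 marker UMIs. The Sertoli marker sum against the preleptotene class went from 2093 to -811 CPM with 3 marker UMIs. With the mitochondrial limit, which acts on the measure itself, the mitochondrial share went from 2.61 to -0.0591 points against the preleptotene class and from -7.64 to 0.756 points between cells with *Dmrtb1* or *Esx1* and cells with neither. With 3 marker UMIs the log2 differences to the preleptotene class became -0.052 for *Fndc5*, -0.32 for *Prcd*, -0.16 for *Mid1ip1*, -0.048 for *Daam2*, -0.024 for *Cldn11*, -0.10 for *Sdc4*, -0.40 for *Qpct* and -0.31 for *AC167229.1*. *Gm364* became -0.041 against a looser early class and *Col3a1* 0.86 in the interaction with the 1% somatic limit. The cause was not tested. Counts without a library leave 1 sample in a genotype, assumed to vary like the others. Of 988 values of 100 named genes under alternatives, 805 kept direction and side of the threshold, 150 lost and 23 gained the call, and 10 changed sign. The shares of late-marker cells kept their direction in every alternative run.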

Other observations

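*Runx3*, a transcription factor gene of the Runt family, stood among the 10 largest increases from the undifferentiated class in cells with at most 1% somatic marker UMIs, at 67.4 against 11.9 CPM (2.40 ± 0.21 on the log2 scale, edgeR adjusted p = 8.2e-10). The chromatin remodelling gene *Baz1a* stood at 88.5 against 13.8 CPM (2.68 ± 0.20). Among the falls in the same cells were the zinc finger gene *Zfp462* (12.2 against 152 CPM, -3.78 ± 0.18) and *H2afy2*, which encodes a macroH2A histone variant (7.43 against 91.8 CPM, -3.66 ± 0.23). In cells with *Dmrtb1* or *Esx1*, 14 of 82 ribosomal protein genes were higher than in cells with neither and 1 was lower, with a median log2 difference of 0.17, where 1.34% of all genes were higher and 4.15% lower. Of the same genes, 4 were higher and 2 lower in cells with at most 1% somatic marker UMIs, where 0.634% and 1.29% of all genes were. No spermatid gene of the 7 listed passed the filter on low counts in any comparison.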
